A study of Homo sapiens with 4 samples.

Results

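The genes described here are 38 chaperone and unfolded protein response genes, taken by symbol from a fixed list out of 42425 genes with a transcript entry in both deposited tables. They were 15 folding genes of the endoplasmic reticulum (ER), 5 ER disposal genes, 4 ER stress sensor genes, 11 cytosolic chaperone genes and 3 mitochondrial chaperone genes. Expression was measured by RNA sequencing in HT29, an established human colon adenocarcinoma line, in 4 libraries, 1 for each group, called Precursor and Precursor Control (the precursor pair) and Antimir and Antimir Control (the antimir pair). Per the labels' protocols, the cells were transfected with the named reagent at 50 nM (printed as "50nm") by Lipofectamine 2000 at 90% confluency in 5% serum. The medium was changed at 24 h and RNA was isolated with Trizol at 48 h. A miR-23b precursor is a synthetic RNA that raises this microRNA, an antimir is an oligonucleotide that blocks it, and each had its own control transfection. All 4 libraries therefore came from cells of 1 line that had been through a transfection, and no untransfected culture entered the comparisons. No value below has a replicate, so differences are given without a test or an error between cultures.

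The ER folds secreted and membrane proteins with the help of chaperones, and unfolded protein that builds up there is sensed by the membrane proteins IRE1 (ERN1), PERK (EIF2AK3) and ATF6. These sensors raise chaperone and disposal genes, IRE1 by cutting a short stretch out of the XBP1 messenger RNA, while misfolded protein is passed back to the cytosol for degradation. In the cytosol the heat shock factor HSF1 controls HSP70, HSP90 and their partners, and mitochondria hold chaperones of their own.

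All 38 genes passed the filter of a mean FPKM of at least 1 in each comparison, and none had a failed transcript. FPKM is the read density per transcript length and library size, here summed over the transcripts of a gene. A difference is the treated minus the control value of log2(FPKM + 1), after the median of all genes passing the filter was set to 0. This scale understates the fold change of low genes, and 0.26 stands for 1.2-fold.

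The level of the members ran from ERN1, the lowest in each library at 1.44 to 2.17 FPKM, to HSPA8, the constitutive cytosolic HSP70, at 1802 to 3701 FPKM. The median member stood at 123 FPKM with the precursor, 102 in the precursor control, 76.5 with the antimir and 77.2 in the antimir control. The 2 tables were normalised separately, so a level in the precursor pair set beside one in the antimir pair also carries that scaling. The plot of levels by gene shows the order of the members and how close the libraries of a pair lie.

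**Figure D1:**
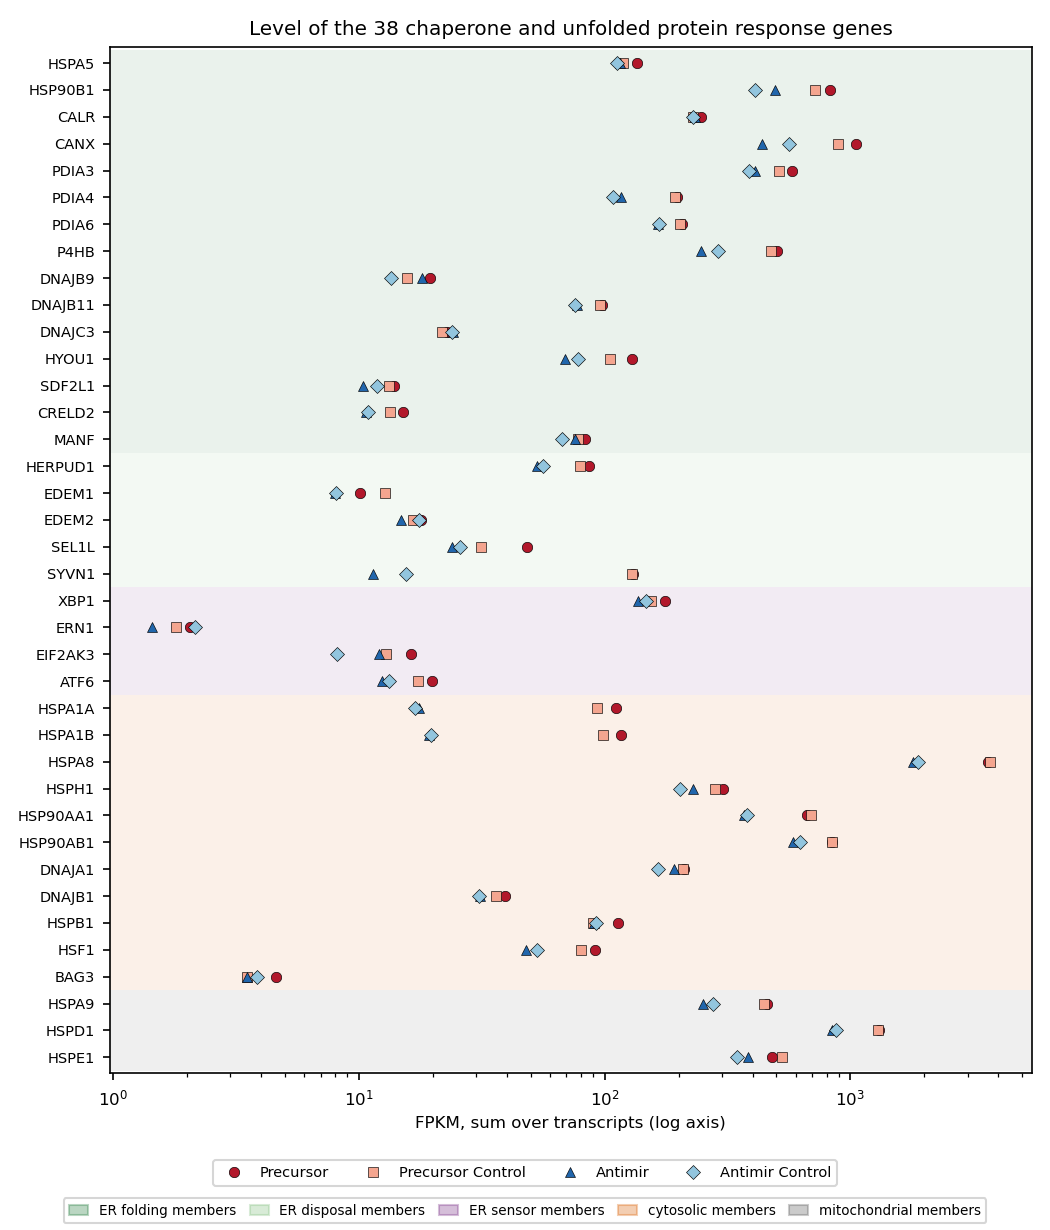
FPKM of each of the 38 genes, summed over transcripts, on a log axis, with 1 point for each of the 4 libraries and shading by role. Points of a treated library and its control lie close together for most genes, while HSPA1A, HSPA1B and SYVN1 stand at 92.9 to 130.5 FPKM in the precursor pair and at 11.5 to 19.7 FPKM in the antimir pair.

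The first comparison asks what differs between the precursor library and its control. No level of mature miR-23b is given here, so its rise or block in these cultures was not tested. With the precursor, 31 of the 38 members were above the median of all genes and 7 below, where 50% of 15096 genes lie above by construction and 52.1% of those with a mean of at least 10 FPKM do. The median member difference was 0.087. Past 1.2-fold, 6 members were higher and 1 was lower, or 15.8% and 2.63% of the members. Over all genes 8.25% were that much higher and 9.54% that much lower, and among genes with a mean of at least 10 FPKM 5.36% and 6.28%. None of the 38 passed 1.5-fold, against 2.12% of all genes higher and 2.33% lower, although SEL1L did under some alternatives given below. The split of 31 above and 7 below became 27 and 11 when centred on genes of at least 50 FPKM, 25 and 11 with a filter of at least 10 FPKM, and 26 and 12 with protein-coding transcripts only. In RNA of a whole culture, a difference in fewer cells and a smaller difference per cell cannot be told apart.

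The second comparison asks what differs between the antimir library and its control. With the antimir, 20 members were above 0 and 18 below, where 50% of 13283 genes lie above, and the median member difference was 0.014. Past 1.2-fold, 3 members were higher, or 7.89% of them, against 12.9% of all genes. The 3 that were lower by as much compare with 10.6% of all genes. Among genes with a mean of at least 10 FPKM these shares were 9.3% and 7.81%. None passed 1.5-fold, against 3.73% of all genes higher and 2.14% lower. Under the alternatives EIF2AK3 did so at 0.61 with a pseudocount of 0.1, and SYVN1 at 1.04 and DNAJB9 at 0.78 with the most abundant transcript. Without centring 15 members were above 0 and 23 below. Of the 38 members, 17 were above 0 in both comparisons, 14 were above 0 with the precursor and below 0 with the antimir, 3 the other way round and 4 were below 0 in both.

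**Figure D2:**
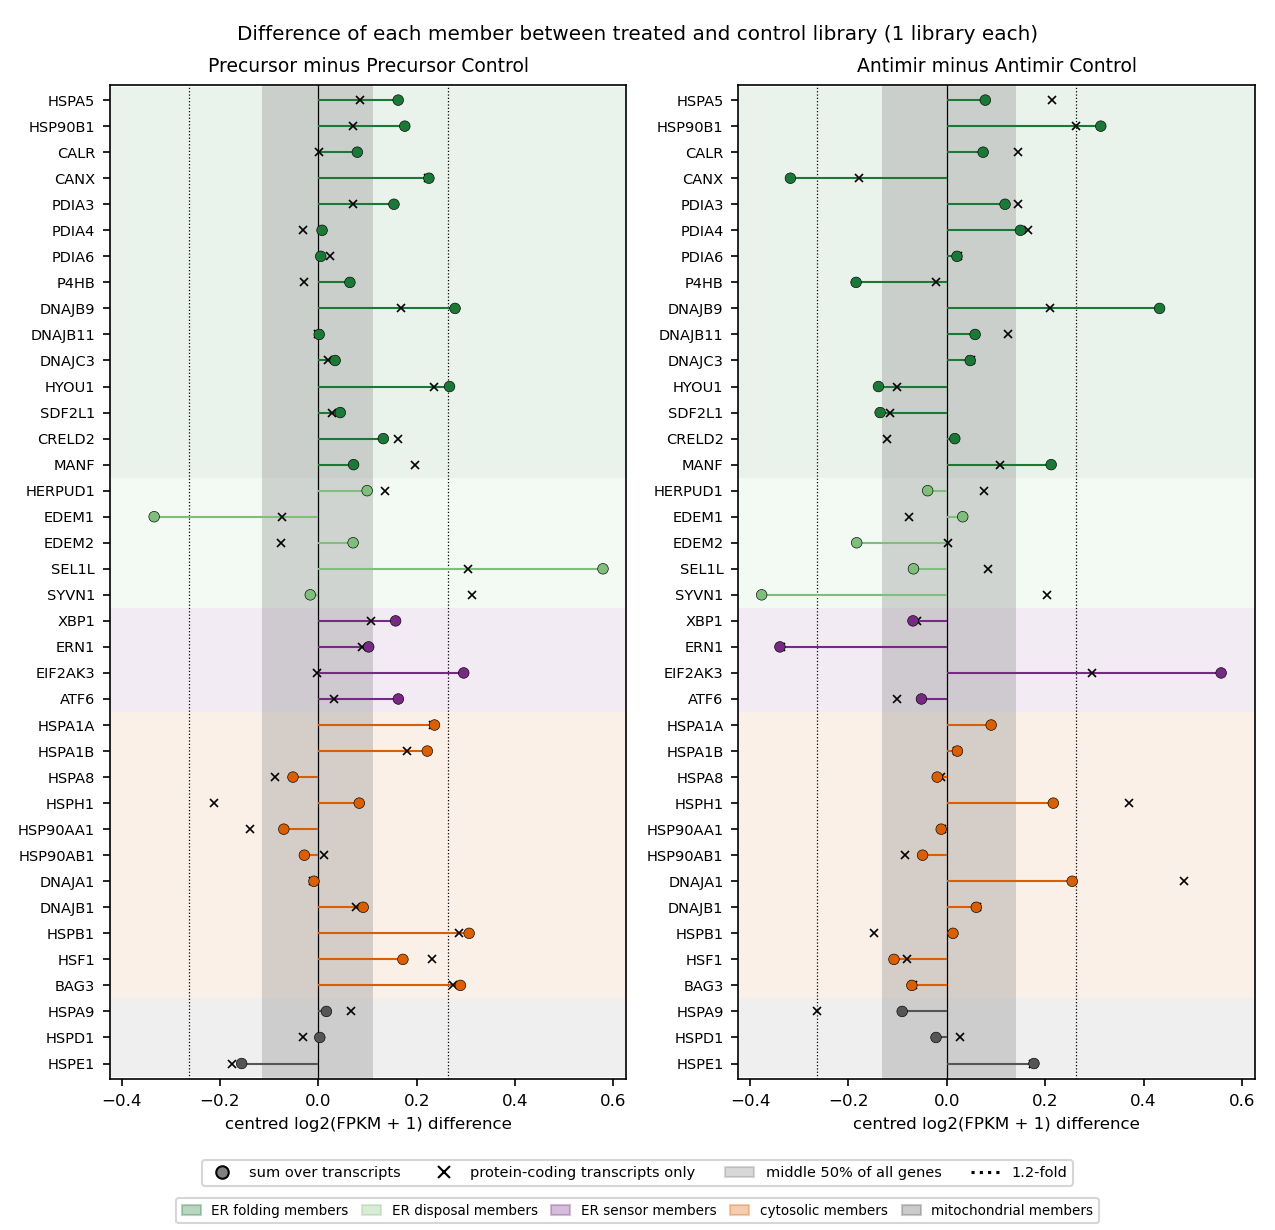
Centred log2(FPKM + 1) difference of each gene between the precursor library and its control (left) and between the antimir library and its control (right), 1 library each. Circles sum all transcripts, crosses use protein-coding transcripts only, the grey band holds the middle 50% of all genes and dotted lines mark 1.2-fold; all 15 ER folding genes sit above 0 on the left when all transcripts are summed and the median of all genes is 0, and 11 of them on the right.

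ER folding genes lay above 0 in 15 of 15 cases in the precursor library, with a median of 0.079. Their differences were small: 2 of the 15, DNAJB9 and HYOU1, were past 1.2-fold and none was that much lower. Centred on genes of at least 50 FPKM, 12 of 15 were above 0 and 0 past 1.2-fold, and with a filter of at least 10 FPKM 12 were above 0 and 1, DNAJB9, was past it. Counted from the most abundant transcript alone, 14 of 15 were above 0, with a median of 0.10. Counted from transcripts that GENCODE 29 types as protein-coding, 12 of 15 were above 0 and 0 past 1.2-fold, with a median of 0.071. In the antimir library 11 of 15 were above 0, with a median of 0.058.

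HSPA5 (BiP), the ER member of the HSP70 family and the holder of the sensors in their resting state, was at 135 FPKM with the precursor, 119 in the precursor control, 115 with the antimir and 112 in the antimir control. In plain FPKM its level was nearly even across the libraries and highest with the precursor. After centring, HSPA5 was at -0.23 between the control libraries, lower in Precursor Control. The difference was 0.16 with the precursor and 0.078 with the antimir.

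HSP90B1 (GRP94), the ER member of the HSP90 family, was at 823 FPKM with the precursor, 718 in the precursor control, 495 with the antimir and 409.7 in the antimir control. The treated library was the higher one in both pairs. The difference was 0.18 with the precursor and 0.31 with the antimir, the latter past 1.2-fold. With protein-coding transcripts only, these values were 0.071 and 0.26, and with the most abundant transcript 0.16 and 0.25, so that the antimir value fell just under 1.2-fold in both. The locus entry of HSP90B1, chr12:104235228-104359486 in hg19, is shared with C12orf73 and 2 other genes.

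CANX (calnexin), the membrane lectin that holds glycoproteins during folding, was at 1057 FPKM with the precursor, 891 in the precursor control, 437 with the antimir and 560.3 in the antimir control. It was higher than its control with the precursor and lower with the antimir. The difference was 0.22 with the precursor and -0.32 with the antimir, and with protein-coding transcripts only 0.22 and -0.18. Its most abundant transcript was a processed transcript, with 25.8% of the gene's FPKM in the precursor control.

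CALR (calreticulin), the soluble partner of calnexin, was at 246 and 229 FPKM in the precursor pair and at 234 and 228 in the antimir pair. The 4 FPKM values were close to each other, with differences of 0.079 and 0.074. After centring, CALR was at -0.31 between the control libraries, lower in Precursor Control. PDIA3, the disulphide isomerase that works with these lectins, was at 581 and 514 FPKM in the precursor pair and at 408 and 386 in the antimir pair, with differences of 0.15 and 0.12. Transcripts not found in GENCODE 29 held 65.1% of the CALR signal in the precursor control, and the PDIA3 locus entry spans 18 other genes.

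The other disulphide isomerases differed little in the precursor library. PDIA4 differed by 0.0076 with the precursor and 0.15 with the antimir, and PDIA6 by 0.0049 and 0.021. P4HB, which also serves as a subunit of prolyl hydroxylase, differed by 0.064 with the precursor and by -0.18 with the antimir.

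DNAJB9 (ERdj4), a J protein that delivers clients to BiP, was at 19.5 FPKM with the precursor, 15.7 in the precursor control, 18.0 with the antimir and 13.5 in the antimir control. Both treated libraries were above their own controls, the difference being 0.28 with the precursor and 0.43 with the antimir. These became 0.17 and 0.21 with protein-coding transcripts only, both under 1.2-fold. Its most abundant transcript, a processed transcript, carried 53.6% of the FPKM in the precursor control, and its locus entry holds PNPLA8 and THAP5 as well.

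HYOU1 (GRP170), the nucleotide exchange factor of BiP, was at 129 FPKM with the precursor, 105 in the precursor control, 69.1 with the antimir and 78.3 in the antimir control. It was higher than its control with the precursor, by 0.27, and lower with the antimir, by -0.14. The remaining J proteins of the ER, DNAJB11 and DNAJC3, differed by 0.0018 and 0.034 with the precursor and by 0.058 and 0.048 with the antimir. SDF2L1, a partner of DNAJB11, differed by 0.045 and -0.14, CRELD2, an ER stress-induced protein, by 0.13 and 0.016, and MANF, a secreted ER stress protein that binds BiP, by 0.072 and 0.21.

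Among genes of ER protein disposal lay both the highest and the lowest member difference with the precursor. SEL1L, the adaptor of the ubiquitin ligase SYVN1 (HRD1), was at 48.2 FPKM with the precursor, 31.5 in the precursor control, 23.9 with the antimir and 25.8 in the antimir control. The precursor library stood apart from the other 3. Its difference of 0.58 was the highest of the 38 with the precursor and fell just short of 1.5-fold, which is 0.585 on this scale (0.579 for SEL1L). The ratio of its FPKM was 1.53, and the difference passed 1.5-fold with the most abundant transcript at 0.75, with a pseudocount of 0.1 at 0.59 and without centring at 0.60. With transcripts of status OK only, 4 of the 7 of SEL1L in the precursor pair, it was 0.34. The antimir difference was -0.068. A single transcript at chr14:81937892-82000205 (hg19), ENST00000261258, was at 28.4 FPKM against 16.2 in the precursor pair. That transcript was not found in GENCODE 29, and with protein-coding transcripts only the difference of SEL1L was 0.30.

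SYVN1 itself was at 130.5 FPKM with the precursor, 129.9 in the precursor control, 11.5 with the antimir and 15.6 in the antimir control. The pairs were far apart, and within the pairs the difference was -0.016 with the precursor and -0.38 with the antimir. A retained-intron transcript of 656 bases, ENST00000530451, held 112 FPKM in both libraries of the precursor pair, 86.1% of the gene in the control, and was listed at 0 in both libraries of the antimir pair. With protein-coding transcripts only, SYVN1 was above 0 in both comparisons, by 0.31 and 0.20. Its locus entry, chr11:64888099-64902004 in hg19, also holds FAU and MRPL49.

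EDEM1, a lectin that directs trimmed glycoproteins to disposal, was at 10.1 FPKM with the precursor, 12.8 in the precursor control, 8.03 with the antimir and 8.07 in the antimir control. Its difference of -0.33 was the lowest of the members with the precursor, and that of the antimir was 0.032. The main coding transcript, ENST00000256497, stood at 5.80 FPKM with the precursor against 5.69 without it, and a short retained-intron transcript, ENST00000492751, at 3.84 against 5.24. With the most abundant transcript only, the difference of EDEM1 was -0.0074. EDEM2, of the same family, differed by 0.071 and -0.18, and HERPUD1, a membrane organiser of the disposal complex, by 0.10 and -0.039.

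Among the sensors, all 4 genes were above 0 in the precursor library, with a median of 0.16, and 1 of 4 in the antimir library. EIF2AK3 (PERK), the kinase that slows translation under ER stress, was at 16.4 FPKM with the precursor, 13.0 in the precursor control, 12.1 with the antimir and 8.15 in the antimir control. It was above its control in both pairs, by 0.30 and 0.56, and the antimir value was the highest of the 38. Its leading transcript was a processed transcript of 582 bases, ENST00000470706, at 7.78, 5.79, 5.12 and 3.54 FPKM in the same order. With protein-coding transcripts only, the differences were -0.0034 and 0.29.

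ERN1 (IRE1), measured from 1 transcript, was at 2.06 FPKM with the precursor, 1.81 in the precursor control, 1.44 with the antimir and 2.17 in the antimir control. It was the lowest member in each library, and the antimir library was the lowest of the 4. The difference was 0.10 with the precursor and -0.34 with the antimir, or -0.52 with a pseudocount of 0.1, where the plain ratio of FPKM was 0.663. ATF6, the sensor that is cleaved to a transcription factor, was at 19.9 and 17.4 FPKM in the precursor pair and 12.4 and 13.3 in the antimir pair, with differences of 0.16 and -0.052.

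XBP1, the transcription factor whose messenger RNA is the substrate of IRE1, was at 176 FPKM with the precursor, 155 in the precursor control, 137 with the antimir and 148 in the antimir control. The gene differed by 0.16 with the precursor and by -0.069 with the antimir. Its reference transcripts can be told apart by the 26 bases that IRE1 removes, which ENST00000344347 lacks and 4 others hold. The stretch is shown in capitals between its flanking bases because the shares below turn on it; the 26 bases can be placed at 7 equivalent positions, since the sequence on either side repeats.
XBP1 stretch: ccGCAGCACTCAGACTACGTGCACCTCTgc

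The form without the stretch was at 71.9 FPKM with the precursor, 68.9 in the precursor control, 79.8 with the antimir and 67.2 in the antimir control. The forms with the stretch summed to 75.5, 65.4, 57.0 and 79.0 FPKM in the same order. The form without the stretch thus took 48.8% of the assigned FPKM with the precursor, 51.3% in the precursor control, 58.3% with the antimir and 46.0% in the antimir control. The precursor pair lay close together, and the antimir library had the highest share. The antimir pair differed mainly in ENST00000216037, at 46.0 against 71.4 FPKM. Between ENST00000344347 and ENST00000216037 alone, the share was 61.1%, 64.4%, 63.4% and 48.5%, so that the Antimir Control library stood apart from the other 3. These transcripts are 1131 and 1850 bases long and differ elsewhere too, so the shares are estimates of transcript abundance and not counts of the spliced junction.

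**Figure D3:**
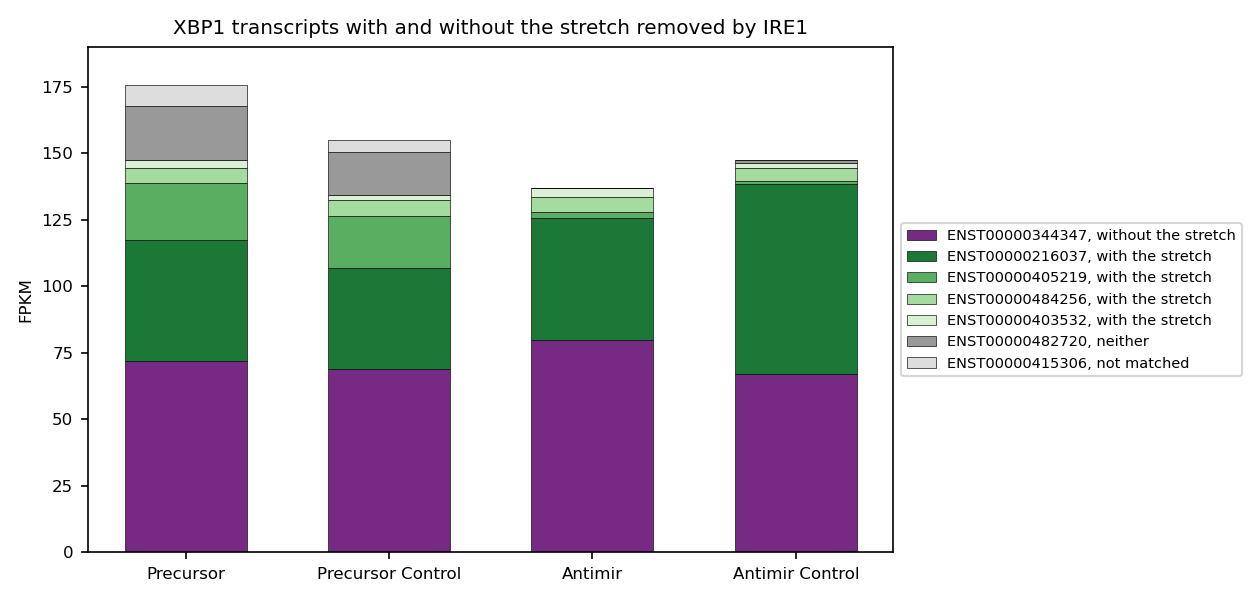
FPKM of the 7 XBP1 transcripts, stacked, in each of the 4 libraries, with colours for the form without the 26-base stretch, the 4 forms with it, 1 transcript that spans neither and 1 not matched. The form without the stretch runs from 67.2 to 79.8 FPKM, and ENST00000216037 is at 71.4 FPKM in the Antimir Control library against 38.1 to 46.0 in the other 3.

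Cytosolic chaperones lay on both sides of 0. In the precursor library 7 of 11 were above 0, with a median of 0.091, and in the antimir library 6 of 11, with a median of 0.013. Those below 0 with the precursor were HSPA8 at -0.052, HSP90AA1, the stress-inducible cytosolic HSP90, at -0.070, HSP90AB1, the constitutive one, at -0.028 and DNAJA1, a J protein partner of HSP70, at -0.0089. These values are small, and the sign of some depends on the setting. HSP90AB1 was at 0.026 with the most abundant transcript and 0.011 with protein-coding transcripts, and DNAJA1 at 0.013 without centring. There are 17 named pseudogenes of HSPA8 and 6 of DNAJA1, so their values may hold reads of copies.

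HSPA1A, a stress-inducible HSP70, was at 111 FPKM with the precursor, 92.9 in the precursor control, 17.7 with the antimir and 17.0 in the antimir control. HSPA1B, its near copy, was at 117, 98.6, 19.4 and 19.7 FPKM. Both were higher in the precursor library than in its control, by 0.24 and 0.22, and near even in the antimir pair, at 0.090 and 0.022. Of the 50-base windows of HSPA1A, 71.3% also occur in HSPA1B, so reads can pass between these 2 genes and the pair cannot be told apart with confidence.

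HSPB1 (HSP27), a small chaperone that holds unfolded proteins, was at 113 FPKM with the precursor, 89.8 in the precursor control, 90.5 with the antimir and 92.3 in the antimir control. In plain FPKM the precursor library was the high one and the other 3 were close to each other. After centring, HSPB1 was at -0.36 between the control libraries, lower in Precursor Control than in Antimir Control. The difference was 0.31 with the precursor and 0.013 with the antimir, at chr7:75931860-75933612 in hg19. Its main coding transcript, ENST00000248553, gave 48.7 FPKM against 37.5 in the precursor pair. BAG3, which links HSP70 clients to autophagy, was at 4.60 and 3.51 FPKM in the precursor pair and 3.51 and 3.87 in the antimir pair, a difference of 0.29 and -0.071. Between the control libraries BAG3 was at -0.43 after centring, again lower in Precursor Control. Both members stayed above 0 with the precursor when only protein-coding transcripts were summed, at 0.29 for HSPB1 and 0.27 for BAG3.

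HSF1, the heat shock transcription factor, differed by 0.17 with the precursor and by -0.11 with the antimir. DNAJB1, the J protein of the heat shock response, differed by 0.091 and 0.060. HSPH1, an exchange factor for HSP70, was at 302 and 281 FPKM in the precursor pair and 229 and 203 in the antimir pair, with differences of 0.083 and 0.22. With protein-coding transcripts only, HSPH1 was at -0.21 with the precursor and 0.37 with the antimir. DNAJA1 was at 209.5 and 208 FPKM in the precursor pair and at 192 and 165 in the antimir pair, where its difference was 0.25.

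The mitochondrial chaperones were abundant, and with all transcripts summed none passed 1.2-fold in either comparison. HSPD1 (HSP60), which forms the folding chamber, was at 1312 and 1289.8 FPKM in the precursor pair and 842 and 878 in the antimir pair, with differences of 0.0030 and -0.022. HSPE1 (HSP10), its lid, was at 479 FPKM with the precursor, 525 in the precursor control, 382 with the antimir and 347 in the antimir control. It was lower than its control with the precursor and higher with the antimir, by -0.16 and 0.18. HSPA9 (mortalin), the HSP70 that pulls proteins in, differed by 0.016 and -0.091. With protein-coding transcripts only, HSPA9 was at 0.066 with the precursor and -0.264 with the antimir, the latter past 1.2-fold lower. HSPD1 and HSPE1 share a locus entry, and 17 and 26 named pseudogenes carry their symbols, so their values may hold reads of copies.

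Much of the members' signal was placed on transcripts that GENCODE 29 does not type as protein-coding. This includes transcripts not found there, whose type is unknown. A protein-coding type does not mark a full-length transcript either: CANX ENST00000510810, so typed, is 511 bases long. Of their 329 transcripts, 135 are typed protein-coding in GENCODE 29, 79 retained-intron, 25 processed and 23 nonsense-mediated decay, 1 is a processed pseudogene and 66 were not found. The median share of a member's FPKM in protein-coding transcripts was 47.3% with the precursor, 46.3% in the precursor control, 67.5% with the antimir and 62.5% in the antimir control. Over all genes this share of the summed FPKM was 33.7%, 32.7%, 46.9% and 46.9%. The pairs thus differed in the same order among members and among all genes. With the protein-coding sums, 9 of 38 members took the other sign with the precursor, and 8 of the 37 with a value did with the antimir. Some of these were near 0 to begin with, such as DNAJB11 at 0.0018 with the precursor. These sums also leave out the transcripts not found in GENCODE 29 and are centred on fewer genes. The part of this split in the member differences was not tested.

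**Figure D4:**
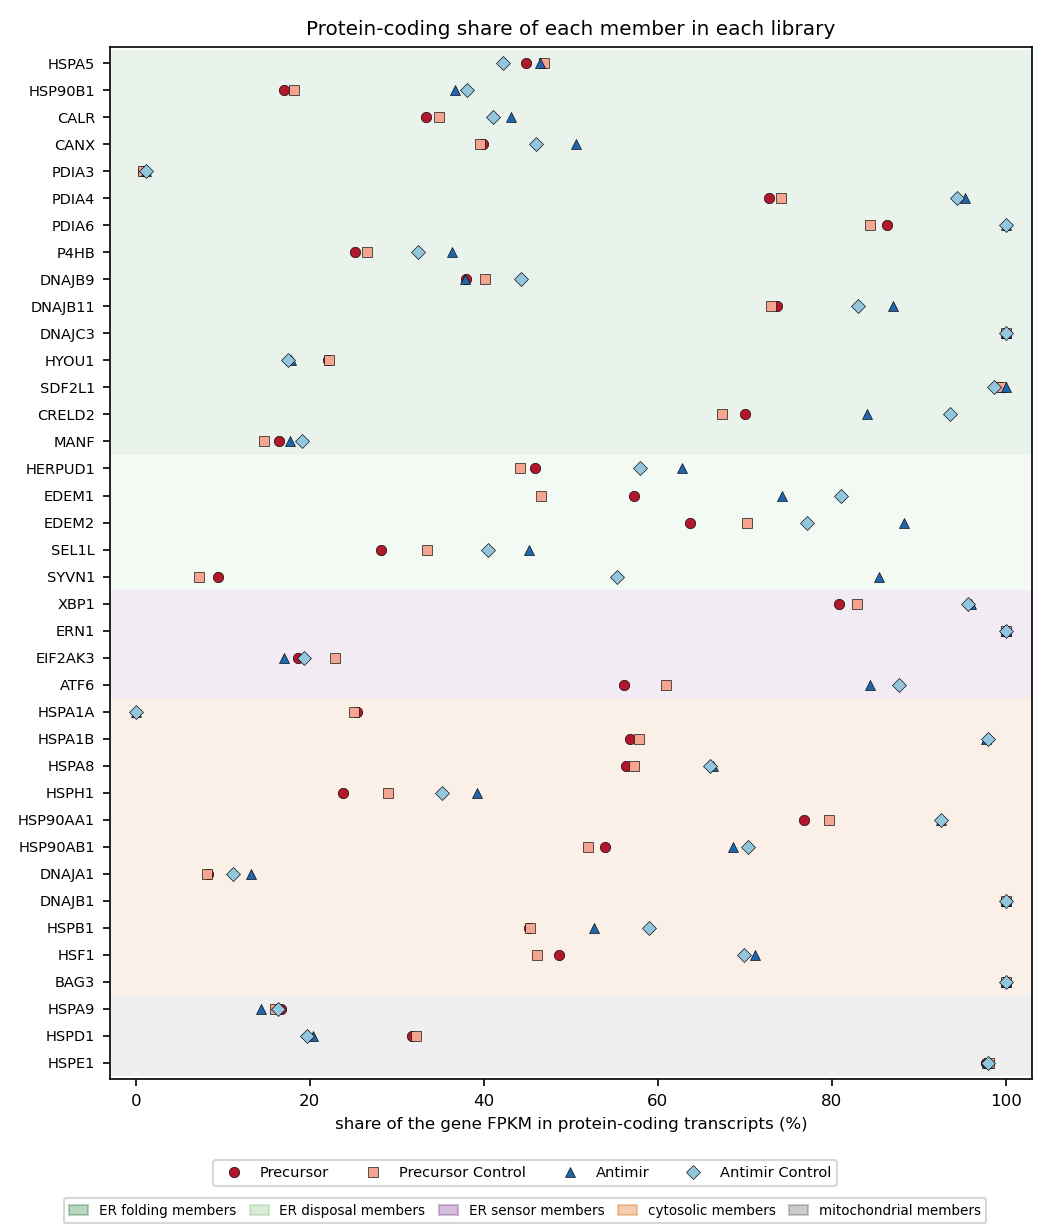
Share of each gene's FPKM placed on transcripts typed protein-coding, in percent, with 1 point for each of the 4 libraries and shading by role. For most genes the antimir pair lies to the right of the precursor pair, as for SYVN1 at 9.46% and 7.30% in the precursor pair and 85.4% and 55.3% in the antimir pair.

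The authors' deposited table for the precursor pair called 29 of 271 tested member transcripts higher and 17 lower, where 6.91% and 6.66% of all tested transcripts were called. These calls compare 2 libraries, not 2 conditions. By gene, the authors' deposited table called a transcript higher in 20 members and lower in 13, with 11 called both ways, against 22.6% and 21.6% of all genes. Members have many transcripts each, which bears on a count by gene. The calls on abundant transcripts in the authors' deposited table included CANX ENST00000502498, higher at 78.0 against 47.1 FPKM (q 2.51e-06), and HSPD1 ENST00000486181, a retained-intron form, higher at 109 against 86.4 FPKM (q 0.0333). For HSPB1 the authors' deposited table called both main transcripts higher, ENST00000248553 with q 0.0143 and ENST00000432276 with q 0.0404. BAG3 ENST00000369085 was called higher in the authors' deposited table at 3.25 against 2.32 FPKM (q 0.0196). For HSP90AA1, 2 minor transcripts were called lower in the authors' deposited table, at 1.48 against 3.21 and 5.22 against 9.36 FPKM.

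In the antimir pair, the authors' deposited table called 0 of 221 member transcripts higher and 1 lower, where 0.243% and 0.171% of all tested transcripts were called. By gene the authors' deposited table had 0.924% of all genes with a transcript called higher and 0.69% with one called lower. The 1 call in the authors' deposited table was HERPUD1 ENST00000300302, at 1.74 against 9.09 FPKM in the control (q 0.000841). Another coding transcript of HERPUD1, ENST00000344114, stood the other way at 6.88 against 0.245 FPKM, and the gene as a whole was at 53.0 against 56.0 FPKM.

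The 2 control libraries give the only view of how far libraries differ without the miR-23b reagents, although they also differ in control reagent and come from tables normalised separately. The median of all genes was 0.32 higher in Precursor Control and was set to 0. The median size of a member's difference between the controls was 0.27, against 0.10 in the precursor comparison and 0.084 in the antimir comparison. The control libraries differed by more than the precursor pair for 28 of 38 members and by more than the antimir pair for 28, with 25 counted in both. Each treated comparison shares 1 of these controls.

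Past 1.2-fold, 14 members were higher and 6 lower in Precursor Control than in Antimir Control, against 28.6% and 22% of all genes. Past 1.5-fold, 4 were higher and 0 lower, against 16.8% and 3.4% of all genes. The 4 were SYVN1 at 2.66, HSPA1A at 2.07, HSPA1B at 1.95 and HSPA8 at 0.66. The value of SYVN1 rests on the retained-intron transcript described above and was 0.040 with protein-coding transcripts only. HSPA1B was at 1.44 with protein-coding transcripts only and past 1.5-fold in each alternative. HSPA8 was at 0.69 with protein-coding transcripts, but at 0.19 with the most abundant transcript and 0.53 when centred on genes of at least 50 FPKM, both under 1.5-fold. Its coding transcript ENST00000227378 was listed at 0 in both libraries of the precursor pair, against 370.4 and 382 FPKM in the antimir pair. The 1 protein-coding transcript of HSPA1A, ENST00000375651, was at 23.3 FPKM in Precursor Control and listed at 0 in both libraries of the antimir pair.

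**Figure D5:**
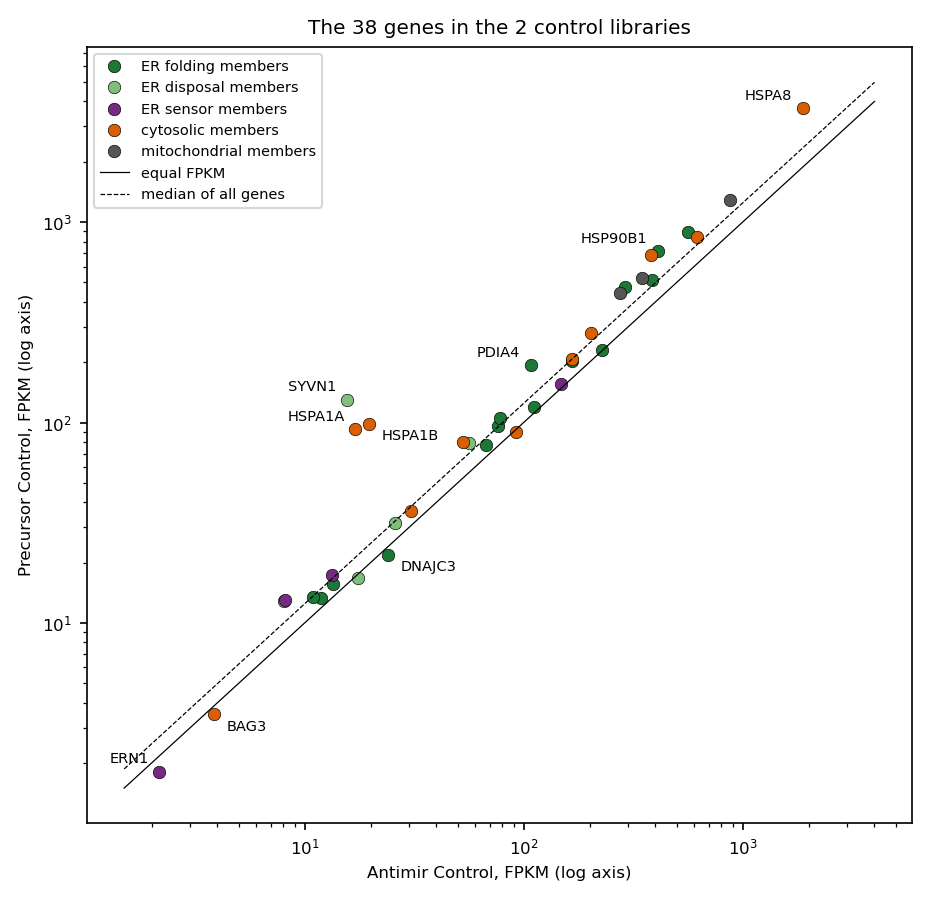
FPKM of the 38 genes in Antimir Control (x axis) against Precursor Control (y axis), both on log axes, coloured by role, with lines for equal FPKM and for the median of all genes. SYVN1 at 129.9 against 15.6 FPKM, HSPA1A at 92.9 against 17.0 and HSPA1B at 98.6 against 19.7 stand apart above the lines.

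Sequence features of the members were read next. The mature miR-23b-3p, from RefSeq at chr9:95085265-95085287 on the plus strand of GRCh38.p14, is shown with its seed, bases 2 to 8, in capitals. Beneath it stand the members' 3′ UTR bases that hold its complement AATGTGA, in capitals, read from each member's longest 3′ UTR in GENCODE 29.
miR-23b-3p: aUCACAUUgccagggauuaccac
HSP90B1 site: cctgtgtggagagggAATGTGAaattt
PDIA6 site: gtatgggttttttttAATGTGAtccct
DNAJC3 site: tcttgacagtttactAATGTGAatcag
ATF6 site: cccttcccattctgtAATGTGAattag
ATF6 site: ccaaagttaggagttAATGTGAaagga

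The sites begin at base 111 after the stop codon in HSP90B1, base 330 in PDIA6, base 3027 in DNAJC3 and bases 2199 and 3331 in ATF6. The 4 genes make 10.5% of the members, where 18.5% of 19053 genes with a 3′ UTR hold the 7 bases. The median 3′ UTR was 2413 bases in the 4 members with a site, 913.5 in the 34 without and 1109 over all genes. In the precursor library the 4 members with a site were all above 0, with a median of 0.098, and 27 of 34 without a site were above 0, with a median of 0.087. In the antimir library the medians were 0.034 with a site and 0.00057 without. DNAJC3 is counted with a site from its longest 3′ UTR, that of ENST00000602402. The only DNAJC3 transcript measured, ENST00000376795, is 2273 bases long in total. It is too short to hold a site at base 3027 after the stop codon. The difference of DNAJC3 nevertheless enters the medians of the members with a site in both libraries. A match of these bases is a description of the sequence and not a measured site of binding.

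Promoters, taken as 250 bases before to 50 after the start in RefSeq on GRCh38.p14, were available for 36 members. The ER stress element was searched as CCAAT, 9 bases of any kind and CCACG, on both strands, the motif through which ATF6 acts. It occurs in 25 of 27305 genes with a promoter there, or 0.0916%, and 7 of those 25 genes are members: HSPA5, HSP90B1, CALR, CANX, PDIA6, CRELD2 and XBP1. The matches are printed along the strand of the gene, with the searched units in capitals, and a match on the opposite strand reads CGTGG first.
HSPA5 ERSE: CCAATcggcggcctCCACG
HSP90B1 ERSE: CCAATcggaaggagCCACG
HSP90B1 ERSE: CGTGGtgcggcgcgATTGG
CALR ERSE: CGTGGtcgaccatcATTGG
CANX ERSE: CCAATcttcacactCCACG
PDIA6 ERSE: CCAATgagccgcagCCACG
CRELD2 ERSE: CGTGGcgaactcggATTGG
XBP1 ERSE: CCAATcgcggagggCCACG

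On GRCh38.p14 the HSPA5 match is at chr9:125241391-125241409 on the minus strand, beginning 66 bases before the start, and that of XBP1 at chr22:28800603-28800621 on the minus strand, 52 bases before it. The first HSP90B1 match is at chr12:103930216-103930234 and that of CANX at chr5:179698778-179698796, both on the plus strand. The 7 genes with the element were all above 0 in the precursor library with all transcripts summed, from 0.0049 to 0.22, with a median of 0.16. PDIA6 was at -0.011 when centred on genes of at least 50 FPKM and at -0.0029 with a filter of at least 10 FPKM. With protein-coding transcripts only, the 7 ran from 0.0012 for CALR to 0.22 for CANX, with HSPA5 at 0.085. Of the 16 other ER members with a promoter, 14 were above 0, with a median of 0.071. For these 16, no match says only that this exact motif is not in the searched window. In the antimir library 5 of the 7 were above 0, with a median of 0.021, and 7 of the 16, with a median of -0.045.

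The heat shock element was searched as 3 alternating units of GAA and TTC with 2 bases between units, on both strands, which is the sequence HSF1 binds. It occurs in 166 of the 27305 genes, or 0.608%, and in those of HSPA8, HSP90AA1, HSP90AB1, DNAJA1 and HSPD1. A match of each is shown along the strand of the gene with the units in capitals.
HSPA8 HSE: TTCtgGAAggTTC
HSP90AA1 HSE: TTCcgGAAggTTC
HSP90AB1 HSE: TTCtgGAAgcTTC
DNAJA1 HSE: GAActTTCcaGAA
HSPD1 HSE: GAAagTTCtgGAA

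In the precursor library 1 of these 5 genes was above 0 with all transcripts summed, with a median of -0.028 and a range of -0.070 to 0.0030. The 6 cytosolic members with a promoter but no such match were all above 0 with all transcripts summed, with a median of 0.23, among them HSPA1A, HSPA1B, HSPB1 and BAG3. With protein-coding transcripts only, HSPH1 of these was at -0.21. HSPA1A and HSPA1B are near copies whose reads cannot be told apart with confidence. In the antimir library the medians were -0.020 and 0.041. No match says only that 3 perfect units are not in this window.

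Other genes of these pathways were counted from lists chosen with earlier results of the data known. Over all genes 50% lie above 0 in either comparison, by construction. Of the ER translocation genes, which thread new proteins into the ER, 12 of 12 were above 0 in the precursor library with a median of 0.097, and 5 of 12 in the antimir library. With the most abundant transcript SSR1 was at -0.18 and SSR3 at -0.24 with the precursor, and the others stayed above 0. SEC63 was the highest of them with the precursor at 0.24 and SSR3 the lowest at 0.0064. Of 17 other ER folding genes above the filter, 14 were above 0 with the precursor, with a median of 0.085, from GANAB at 0.31 to UGGT2 at -0.31, both of glycoprotein folding. Of 14 other ER disposal genes, 6 were above 0, from OS9 at 0.12 to UBE2G2 at -0.37. HSP90 cochaperones stood above 0 in 4 of 10 and the TRiC and prefoldin genes, the cytosolic folding chamber and its feeder, in 6 of 14.

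A list of 8 genes linked to PERK signalling and the exit from stress was read as well. Their levels are not a measure of PERK activity, which was not tested. Of these PERK and stress exit genes, 7 were below 0 with the antimir, with a median of -0.15, 3 were past 1.2-fold lower and 2 past 1.5-fold. With the precursor 5 of 8 were above 0. CHAC1, a glutathione-degrading enzyme, was at 10.5 FPKM with the precursor, 10.1 in the precursor control, 3.97 with the antimir and 10.1 in the antimir control. The antimir library stood apart from the other 3, with a difference of -1.12. The transcription factor ATF3 was at 10.8, 12.1, 5.98 and 11.6 FPKM, with the antimir library again the low one, at -0.81. TRIB3 was at 37.1, 30.7, 20.2 and 28.5 FPKM, a difference of -0.43 with the antimir. ATF4, which sits above these 3, was at -0.048 with the antimir and DDIT3 (CHOP) at -0.048. ATF4 and DDIT3, and ATF3 and TRIB3 in the antimir comparison, were chosen after their values were seen.

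Other gene groups differed between the same libraries. Of 10 interferon-induced genes, 10 were past 1.5-fold higher in the antimir library, with a median of 2.01, and 9 of 10 were below 0 in the precursor library, with a median of -0.31. The 10 proliferation genes had a median of -0.18 with the precursor and 0.14 with the antimir. Their part in the member differences was not tested. Of 10 colon epithelium markers, 8 were at 1 FPKM or more in each library, led by KRT8 at 2346 to 6798 FPKM, while CDH17 and CDX1 were under 1 FPKM. Of 12 markers of other cell types, 11 had an entry, 2 reached 1 FPKM (CD68 and CD14), and the sum ran from 7.74 to 10.1 FPKM per library, with PTPRC, the leukocyte marker, at or near 0.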

How the data were processed

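RNA from 4 HT29 libraries, 1 per group, was used as processed by the authors. Per the submitters' processing notes, bcl2fastq 1.8.3, TopHat2 2.0.11, Cufflinks 2.2.0, Cuffdiff and hg19 were used, and the order, settings and annotation are not given in the sources used here. Per the file headers, the 2 deposited tables hold FPKM per transcript for 1 treated and 1 other library, and the authors' q-value, p-value and call of each transcript at a q of 0.05. The library with a final N in its name was taken as the control. FPKM carries no counts, so depth is unknown and no interval or floor is given.

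Each table held 212874 entries, of which 168036 were transcripts. FPKM was summed per gene over transcripts without a failed status, and whole-locus entries under a gene identifier were left out. Differences of log2(FPKM + 1), a pseudocount of 1, were centred on the median of genes averaging 1 FPKM or more over the 2 libraries, with Python 3.11.15, pandas 2.3.3 and NumPy 2.4.6. The medians removed were 0.022, -0.039 and 0.32 for the precursor, antimir and control comparisons. The computation was tested on simulated data with known fold changes. With 1 library per group no test was run. Transcript types and 3′ UTRs came from GENCODE 29, on another assembly, matched by identifier only; promoters and the microRNA came from RefSeq, GRCh38.p14. The authors' locus coordinates are hg19.

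All 38 members are named. Of the other lists, only some of the highest and lowest genes per comparison are named, and for some lists none. The ranges of those lists are therefore not shown in full. Of marker lists at most 3 genes are named. Additions are stated for the PERK and stress exit genes, and SSR1 is a further addition. The members and lists were chosen with earlier results of these data known. Alternatives were the most abundant transcript, status filters, pseudocount, low-value filter, centring, added whole-locus entries and, added later, protein-coding transcripts only.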

Additional observations from a re-analysis of the deposited data

How the results depend on the processing

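No paired analysis was possible because each group held 1 library, and for that reason no library could be left out in turn. Of the group counts and medians under the alternatives, 134 kept their value within the set tolerance (0.1 for a median, 1.5 times for a count) and 20 did not, 2 of them in the precursor comparison and 1 in the antimir comparison. The alternative with protein-coding transcripts only was chosen after seeing the data. With the precursor, the members past 1.2-fold lower numbered 0 with the most abundant transcript and 0 with protein-coding transcripts, and with the antimir those past 1.2-fold higher numbered 5 with the most abundant transcript. Of single members past 1.2-fold, those that took the other sign were EIF2AK3 with the precursor, at -0.0034 with protein-coding transcripts, and SYVN1 with the antimir, at 1.04 with the most abundant transcript and 0.20 with protein-coding transcripts. In both cases the value follows which transcripts are summed.

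Values between the control libraries depended most on the settings. Their mitochondrial median was 0.57 with the most abundant transcript and 0.57 with protein-coding transcripts, and members past 1.2-fold lower numbered 3 with status OK only. Without the low-value filter, and likewise without centring, the medians were 0.30 for ER, 0.47 for cytosolic and 0.60 for mitochondrial members, with 26 past 1.2-fold higher, 0 lower and CALR at 0.0037. Centred on genes of at least 50 FPKM, they were -0.15, 0.018 and 0.14, with 8 higher. With the most abundant transcript HSP90B1 was at -0.83, CALR at 0.069, PDIA4 at -0.30 and EDEM1 at -0.20. With protein-coding transcripts HSP90B1 was at -0.33, EDEM1 at -0.19 and HSF1 at -0.086, and with status OK only SYVN1 was at -0.027. Apart from the centring, which shifts each value by construction, the cause was not tested. The depth behind each FPKM is unknown, which limits low members such as ERN1 and BAG3 most.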

Other observations

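The entries named by a gene identifier, which were left out of the sums, run over the whole locus of a gene. For the 37 members that have one, they were low, at 3.34 FPKM at most. In the precursor library 33 of the 37 (89.2%) were lower than in the control, against 75.3% of 27630 such entries over all genes. The authors' deposited table called 6 of the 19 tested members lower (31.6%) and 0 higher, against 30.2% and 0.6% of 6005 tested entries. In the antimir library 28 of 35 (80.0%) were higher, against 56.7% of 23339 entries, and the authors' deposited table called 0 of 15 in either direction, against 0.127% higher and 0.0212% lower of 4717. A share lower with the precursor and higher with the antimir is thus also the pattern over all genes. For HSPD1 this entry was at 0.705 FPKM with the precursor, 1.01 in the precursor control, 0.989 with the antimir and 0.835 in the antimir control. For HSPH1 it was at 0.626, 0.878, 0.980 and 0.853 FPKM, so that the precursor library was the low one for both. The summed transcripts lay above 0 in the precursor library, at 0.0030 for HSPD1 and 0.083 for HSPH1. With protein-coding transcripts only, these 2 genes were at -0.031 and -0.21. How these entries were made is not given in the sources used here.

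Mitochondrial quality control genes outside the members, such as proteases and partners of HSPA9, were counted as well. Of 13, 7 were above 0 with the precursor and 5 with the antimir, with CLPX, the unfoldase of the matrix protease, the highest with the precursor at 0.13 and GRPEL2, an exchange factor of HSPA9, the lowest with the antimir at -0.26. Of 8 other ER signalling genes, 7 were above 0 with the precursor, led by TRAF2, an adaptor of IRE1, at 0.23. Among 18 other HSP70 partners and J proteins, 10 were above 0 with the precursor and 12 with the antimir, where DNAJB4 was the highest at 0.42 and BAG1 the lowest at -0.32.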
